A study of Mus musculus with 7 samples.

Results

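Defensins are small cationic peptides of innate immunity that hold their shape through disulfide bonds between conserved cysteines and disrupt microbial membranes. Alpha defensins of the mouse, also called cryptdins, are made by Paneth cells at the base of the small intestinal crypts, whereas beta defensins come from epithelia such as skin, airway and kidney, with many members known from the epididymis. The genes were placed here against lamin-associated domains (LADs), the stretches of chromatin that touch the nuclear lamina, the protein meshwork under the nuclear envelope. Members were the protein-coding genes of the RefSeq table of mouse build GRCm38.p6 (mm10) whose symbol begins with Defa or Defb, which gave 71 of the 21887 protein-coding genes on placed chromosomes. There were 29 alpha and 42 beta defensin genes. The symbol rule took in Defa-ps8, which the table lists as protein-coding although its symbol reads as that of a pseudogene.

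The domains came from CUT&RUN, in which an antibody directs a nuclease to cut and release the DNA beside its target, in mouse embryonic fibroblasts labelled iMEF. Of 7 libraries, 2 were for Lamin B1, a structural protein of the lamina, and the others were for IgG (2 libraries), H3K9me2 (1 with the antibody ab1220 and 1 with 39041) and H3K14ac (1). No treatment or age is named, only the list's own name calls the cells wild type, and the cells are described as independently derived lines from 1 mouse colony. Whether the Lamin B1 libraries came from the same line or from separate lines is not stated in the labels. The measurement used is 1 merged list of 1437 LADs that covers 1328 Mb and has a median domain length of 445.0 kb. It holds positions only, so the read depth is unknown, no value below has a replicate error, and no test was run. The list carries no expression, so the fibroblast label could not be checked by RNA. The 6 fibroblast genes placed (Col1a1, Col1a2, Col3a1, Pdgfra, Thy1 and Vim) lay outside LADs, as most protein-coding genes did (23.8% inside), so their position is no check of the label.

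The defensin genes fell into 5 clusters on 4 chromosomes, a cluster being members less than 500 kb apart. The 250 bases before the annotated start site of 5 members, 1 from each cluster, are printed 5′ to 3′ to show how unlike each other these promoters are, from the alpha family to the beta genes within and outside LADs. Capitals mark TATAAA on the gene's strand, the core of the TATA box at which the general transcription machinery can assemble. Sequences are from RefSeq, build GRCm38.p6. Defa21 (chr8:21025295-21025544, plus strand) is an alpha gene of the second chromosome 8 cluster, Defb38 (chr8:19026569-19026818, minus strand) a beta gene of the first, Defb41 (chr1:18265139-18265388, minus strand) a beta gene of chromosome 1, and these 3 lie in LADs. Defb23 (chr2:152464621-152464870, minus strand) and Defb48 (chr14:62984511-62984760, minus strand) are beta genes of chromosomes 2 and 14 and lie outside.
Defa21: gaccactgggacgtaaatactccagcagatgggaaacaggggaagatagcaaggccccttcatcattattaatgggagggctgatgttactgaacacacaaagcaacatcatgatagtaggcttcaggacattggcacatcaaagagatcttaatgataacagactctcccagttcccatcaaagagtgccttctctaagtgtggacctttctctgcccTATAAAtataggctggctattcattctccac
Defb38: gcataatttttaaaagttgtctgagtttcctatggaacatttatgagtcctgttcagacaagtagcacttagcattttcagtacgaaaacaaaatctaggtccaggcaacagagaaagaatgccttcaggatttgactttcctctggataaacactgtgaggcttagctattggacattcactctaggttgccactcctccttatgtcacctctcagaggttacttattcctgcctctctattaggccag
Defb41: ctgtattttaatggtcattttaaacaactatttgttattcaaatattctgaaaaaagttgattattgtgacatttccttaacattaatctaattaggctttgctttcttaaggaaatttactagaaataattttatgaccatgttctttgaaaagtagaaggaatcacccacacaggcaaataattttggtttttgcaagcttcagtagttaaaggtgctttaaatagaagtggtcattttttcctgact
Defb23: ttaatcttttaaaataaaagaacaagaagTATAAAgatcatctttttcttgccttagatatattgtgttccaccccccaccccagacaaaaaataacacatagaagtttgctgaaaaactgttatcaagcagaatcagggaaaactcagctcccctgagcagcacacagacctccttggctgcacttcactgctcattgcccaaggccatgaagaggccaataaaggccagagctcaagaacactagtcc
Defb48: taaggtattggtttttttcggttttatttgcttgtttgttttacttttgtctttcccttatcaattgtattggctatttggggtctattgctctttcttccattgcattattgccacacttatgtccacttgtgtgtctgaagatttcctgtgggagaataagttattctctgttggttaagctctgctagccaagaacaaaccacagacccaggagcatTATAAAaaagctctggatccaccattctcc

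Most defensin genes lay in LADs, and which side they were on differed by chromosome. By gene midpoint, 54 of 71 defensin genes (76.1%) were in a LAD, against 23.8% of all 21887 protein-coding genes. All 29 alpha genes were inside. Of the 42 beta genes, 25 (59.5%) were inside and 17 outside. On chromosome 8, 52 of 53 members were in LADs (29 of 29 alpha, 23 of 24 beta), where 17.4% of all protein-coding genes of that chromosome were, and 13.0% of those other than defensins. Both members on chromosome 1 were inside (chromosome background 19.7%). None of the 11 on chromosome 2 (background 27.8%) and none of the 5 on chromosome 14 (background 28.9%) was inside. Off chromosome 8, 2 of 18 beta genes (11.1%) were in a LAD. Members of a cluster share 1 stretch of chromosome and are not independent, so the counts rest in effect on 5 places in the genome. Of 63 pairs of defensin genes that are direct neighbours among protein-coding genes, 62 (98.4%) had both genes on the same side of a LAD border, and the value for all 21866 neighbouring protein-coding pairs was 92.6%.

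**Figure D1:**
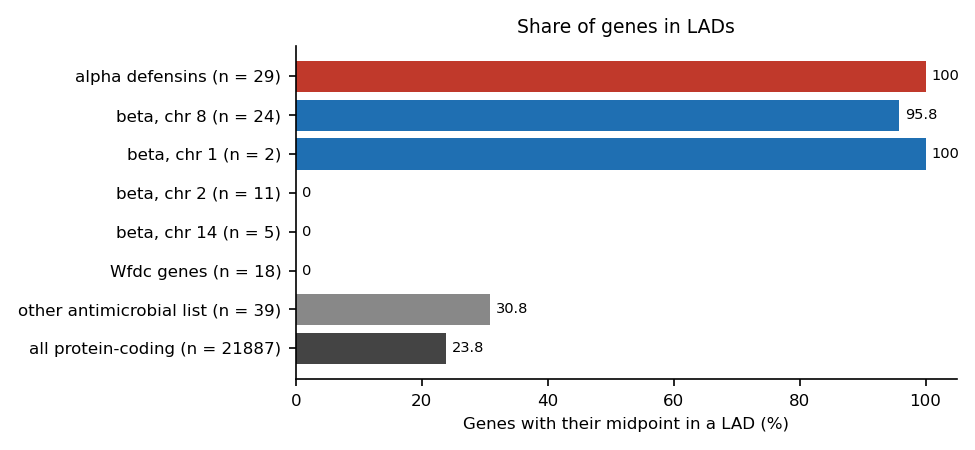
Share of genes with their midpoint in a LAD (percent, horizontal bars from 0) for the alpha defensins, the beta defensins of each chromosome, the Wfdc genes, the list of other antimicrobial genes and all protein-coding genes, with the number of genes beside each name. The alpha bar and the beta bars of chromosomes 8 and 1 stand at 95.8% to 100%, while the beta bars of chromosomes 2 and 14 stand at 0, on either side of the 23.8% of all protein-coding genes.

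**Figure D2:**
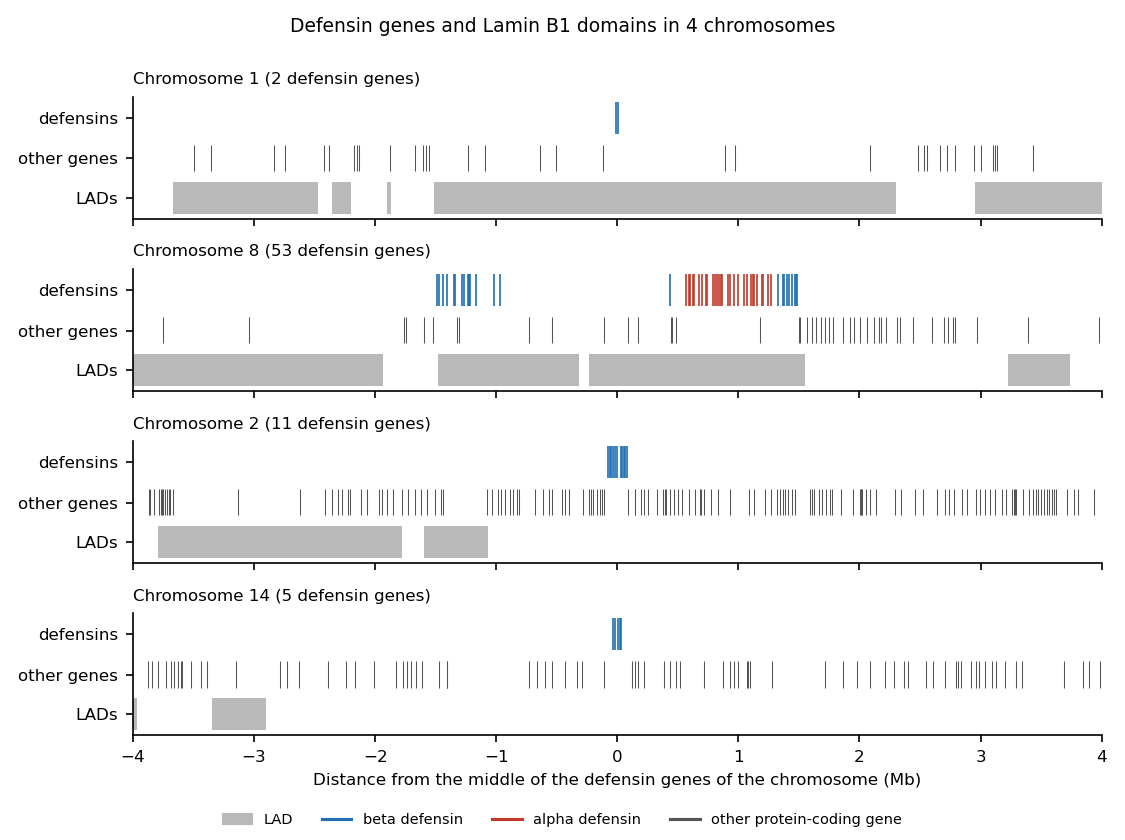
LADs (grey bars), beta defensins (blue), alpha defensins (red) and other protein-coding genes (dark ticks) within 4 Mb of the middle of the defensin genes on chromosomes 1, 8, 2 and 14; the horizontal axis is the distance from that middle in Mb. Defensins on chromosomes 1 and 8 sit above grey bars, except Defb40 at the border of a chromosome 8 LAD. Those on chromosomes 2 and 14 sit in wide LAD-free stretches among many other genes.

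Chromosome 8 carries both families in a stretch of 2.974 Mb from the start of Defb40 to the end of Defb13, of which LADs covered 97.1%. The first cluster ran from Defb40 to Defb7 (chr8:18974914-19497775) with 14 beta genes, among them Defb4 and Defb14, inducible epithelial peptides. A LAD of 1165 kb (chr8:18978148-20143143) held 13 of them. The second cluster ran from Defb33 to Defb13 (chr8:20892667-21948622) with all 29 alpha genes and 10 beta genes, including Defb1, the constitutively expressed beta defensin of kidney and other epithelia. A LAD of 1785 kb (chr8:20225644-22010638) held all 39. Between these LADs lay a gap of 82.5 kb in which no protein-coding gene had its midpoint. That gap was short by the standard of the list, whose gaps had a median of 240.0 kb and a minimum of 52.5 kb, and it fell within the 1.395 Mb between Defb7 and Defb33 that hold no defensin gene.

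Both outer borders of this LAD pair lay close to the ends of the defensin genes. On the low-coordinate side the LAD began inside Defb40: the last 74 bases of the gene (2.24% of its length) were covered and its midpoint lay 1.58 kb outside. All LAD lengths in the list were within 125 bp of a multiple of 2.5 kb, so borders are placed in steps of about that size, and at this resolution Defb40 cannot be assigned to either side. The next gene, Defb37, had its midpoint 10.5 kb inside, and each later member of the first cluster lay deeper, up to Defb7 at 518.3 kb. On the high-coordinate side the LAD ended 62.0 kb after Defb13, within Atp7b, which encodes a copper-transporting ATPase: 26.5% of Atp7b was covered and its midpoint lay 15.8 kb outside.

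**Figure D3:**
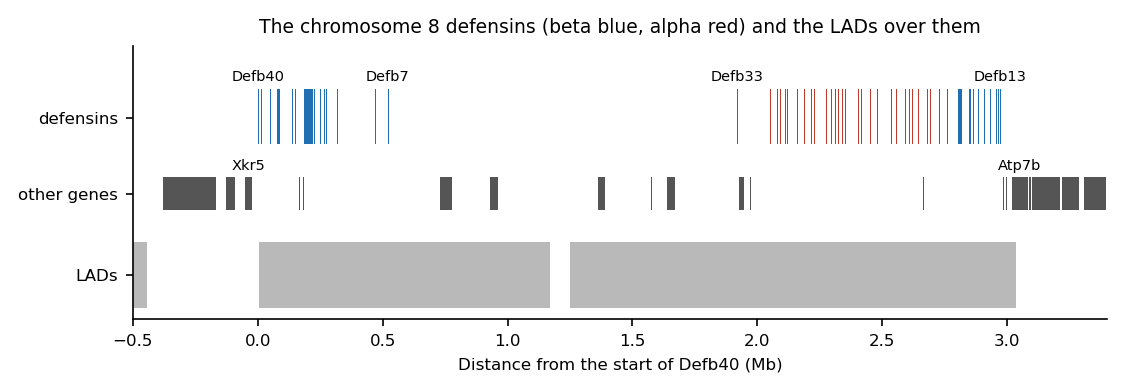
The chromosome 8 defensin genes (beta blue, alpha red), other protein-coding genes (dark) and LADs (grey) by distance from the start of Defb40 in Mb; genes shorter than 4 kb are drawn 4 kb wide. The first LAD begins at Defb40, the second ends inside Atp7b beyond Defb13, and the gap of 82.5 kb between them falls where there is no defensin gene.

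The alpha genes lay deeper than the beta genes that follow them in the same LAD. Distance from the gene midpoint to the nearest border ranged from 275.7 kb (Defa24) to 875.5 kb (Defa30) over the 29 alpha genes, with a median of 684.2 kb. The 9 beta genes after them, Defb1, Defb50, Defb2, Defb10, Defb9, Defb11, Defb15, Defb35 and Defb13, lay 224.8 to 62.9 kb from the border, in that order, and did not overlap with the alpha range. They lie between Defa24 and that border, so gene order alone places them nearer to it than any alpha gene. Defb33, the only beta gene before the alpha genes, was 669.6 kb inside, within the alpha range. For comparison, the 5207 protein-coding genes inside LADs had a median of 307.7 kb. The second cluster as a whole had a median of 554.7 kb, deeper than 66.9% of those genes, and the 13 members inside the LAD of the first cluster had 222.0 kb, deeper than 41.4%.

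Defensins made up most of the annotated gene content of these LADs. They were 13 of 17 protein-coding genes (76.5%) in the first and 39 of 48 (81.2%) in the second, which held 26.9 protein-coding genes per Mb with them and 5.04 without. The 4 other genes of the first LAD were Spag11a and Spag11b, which encode epididymal peptides related to beta defensins, and 4930467E23Rik and 9530057J20Rik. The 9 others of the second were Gm15319, Gm40469, Gm21119, Gm15056, Gm6040, AY761185, Gm15313, Fam90a1a and Ccdc70. Of these, Gm15056 and Gm6040 carry the synonyms Defb52 and Defb51 in the RefSeq table, and the rule on symbols left them out. Outside the pair of LADs the neighbours were of other kinds. Xkr5, Agpat5 and Mcph1 on the low-coordinate side were 40.5, 112.8 and 171.0 kb outside. Within 1 Mb of the second cluster, the 19 protein-coding genes that lay outside LADs were all beyond its high-coordinate border, from Atp7b to Kat6a, a histone acetyltransferase gene. The pseudogenes whose symbol begins with Defa (11) or Defb (1) were also in LADs, 12 of 12, against 50.4% of 10429 pseudogenes. Gm21944, a pseudogene with the synonym Defb48-ps that these symbols leave out, was in the second LAD too.

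On chromosome 1, Defb18 and Defb41 (chr1:18236402-18265138), a pair of beta genes known from the epididymis, lay far from any border. They sat 1502 and 1523 kb inside a LAD of 3817 kb (chr1:16734948-20552435), which ranked 54 of 1437 by length. That depth was greater than for 93.1% and 93.4% of the protein-coding genes inside LADs. This LAD was gene-poor, with 10 protein-coding genes or 2.62 per Mb. The nearest genes on the low-coordinate side were Crisp4, which encodes a secreted protein of the epididymis, 90.5 kb away, then Crispld1 and Pi15. On the other side were Tfap2d and Tfap2b, transcription factor genes, and Pkhd1, which encodes fibrocystin and is mutated in polycystic kidney disease. All 6 had their midpoint in the same LAD, which covered 88.3% of Pkhd1 and all of the other 5.

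The 11 beta genes of chromosome 2, from Defb23 to Defb25 (chr2:152459055-152623053), were in the opposite setting. They lay 984.9 kb (Defb23) to 1146 kb (Defb25) from the nearest LAD, with a median of 1062 kb, and no part of the cluster was covered. The LAD-free gap around them measured 7437 kb (chr2:151476932-158914407), ranked 22 of 1416 gaps by length and held 158 protein-coding genes, or 21.2 per Mb. Their distance was not unusual for genes outside LADs, whose median was 796.3 kb: the median member was farther out than 58.5% of them. Of 46 other protein-coding genes within 1 Mb of the cluster, 45 were also outside, and the exception, 4921509C19Rik, lay 7.77 kb inside the LAD that bounds the gap. The nearest were 6820408C15Rik, Zcchc3 and Sox12 on the low-coordinate side and Rem1, H13 and Mcts2 on the high-coordinate side, with H13 encoding signal peptide peptidase. Defb20 and Defb22 of this cluster encode proteins made in the epididymis, as do the chromosome 1 pair, and these genes lay on opposite sides of LAD borders. They were named from general knowledge of the family, and no list of epididymal beta defensins was placed.

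The 5 beta genes of chromosome 14, Defb48, Defb47, Defb43, Defb30 and Defb42 (chr14:62977524-63048606), were the farthest from a LAD, at 2865, 2881, 2899, 2920 and 2932 kb. The median of 2899 kb was larger than the distance of 88.1% of protein-coding genes outside LADs. Their gap measured 8097 kb (chr14:60116132-68213605) and ranked 18 of 1416. It held 81 protein-coding genes. The cluster was flanked by Wdfy2, Ints6 and Serpine3 on one side and by Ctsb, Fdft1 and Neil2 on the other. Ctsb encodes the lysosomal protease cathepsin B and Fdft1 squalene synthase. None of the 21 other protein-coding genes within 1 Mb was in a LAD.

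**Figure D4:**
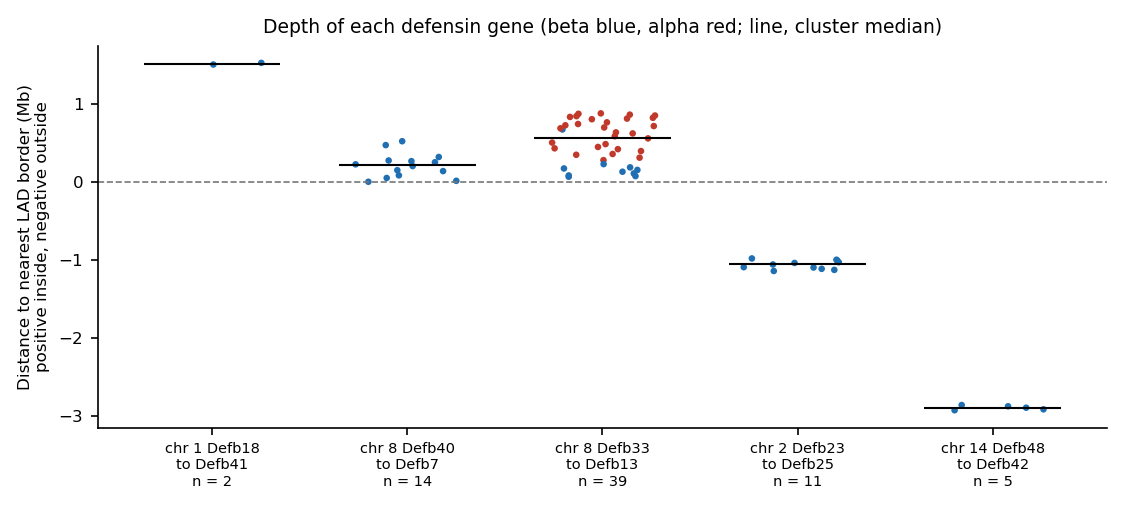
Distance from each defensin gene's midpoint to the nearest LAD border in Mb (positive inside, negative outside), by cluster, with beta genes in blue, alpha genes in red and a line at the cluster median. The clusters separate by chromosome: chromosome 1 near 1.51 Mb inside, both chromosome 8 clusters from the border to 0.876 Mb inside, and chromosomes 2 and 14 wholly outside.

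Alpha genes were shorter than beta genes, and spacing differed between clusters. Alpha genes spanned 0.973 kb at the median (0.805 to 1.33 kb), beta genes 3.21 kb (0.698 to 35.1 kb), and all protein-coding genes 17.2 kb. Spacing between neighbouring members had a median of 11.0 kb on chromosome 2 and 9.87 kb on chromosome 14, and of 26.3 and 20.0 kb in the first and second chromosome 8 clusters. The clusters outside LADs were thus denser than those of chromosome 8, with 67.1 and 70.3 members per Mb against 26.8 and 36.9. The chromosome 1 pair, inside a LAD, had 69.6 and a spacing of 13.5 kb, so density did not divide by LAD side.

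Promoters, which the symbol rule did not use, were compared over the 250 bases before the start site. The RefSeq promoter table matched 45 of the 71 genes with 46 promoters. These were 16 of 29 alpha genes, 15 of 25 beta genes inside LADs and 14 of 17 outside, the last with 15 promoters. Members inside LADs were thus missing more often, which limits the comparisons between the sides. CpG dinucleotides, which are frequent in the promoters of broadly expressed genes, were few in all groups. The median count was 1 in the alpha promoters (0 to 2), 1 in beta promoters inside LADs (0 to 5) and 3 in beta promoters outside (0 to 8). All protein-coding promoters had a median of 2 inside LADs and 13 outside. The defensin promoters outside LADs were thus poorer in CpG than the promoters around them. On chromosome 2 the median was 2 for 9 members and 12 for the 34 of 46 other genes within 1 Mb that had a promoter entry. On chromosome 14 it was 3 for 5 members and 15 for 7 of 21 others. The clusters inside LADs went the same way, with 0 against 5 on chromosome 1 (1 member and 3 others) and 1 against 2 for both chromosome 8 clusters. Of all promoters outside LADs, 18.9% had 3 CpG or fewer and 37.6% had 8 or fewer, so the members lay at the low end without being extreme. The GC share had a median of 45.6% in alpha promoters, 46.8% in beta promoters inside and 50.0% outside. It was 44.8% for all promoters inside LADs and 58.0% for those outside. Among the printed sequences, that of Defb41, deepest in a LAD, had the lowest GC share of all members, 28.4%, and no CpG. Related copies share their bases, so these promoters are not independent.

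**Figure D5:**
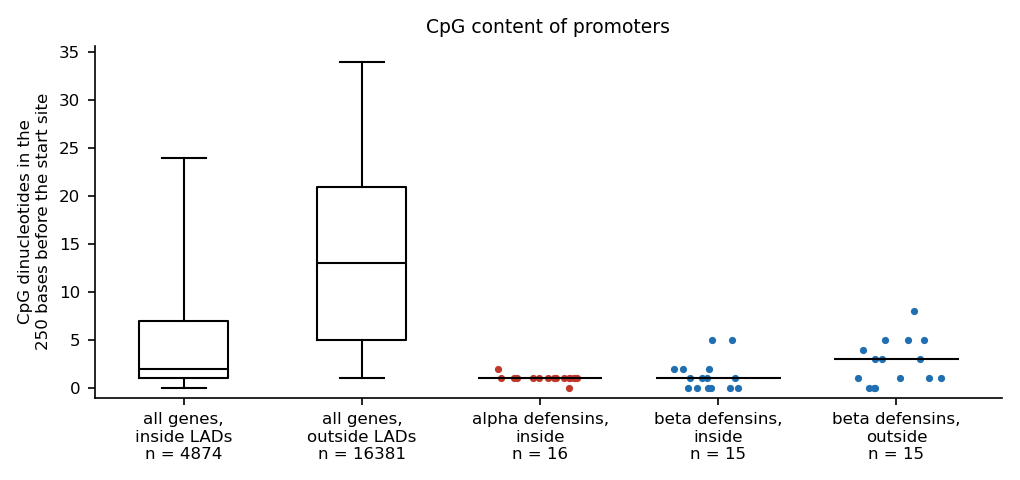
CpG dinucleotides in the 250 bases before the start site: boxes (quartiles and median, whiskers from the 5 to the 95 percentile) for all protein-coding promoters inside and outside LADs, and points (1 per promoter, line at the median) for alpha and beta defensins. Defensin promoters outside LADs reach at most 8, below the median of 13 of all promoters outside.

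The alpha promoters shared a TATA hexamer. TATAAA on either strand was found in 15 of 16 alpha promoters (93.8%), in 2 of 15 beta promoters inside LADs (13.3%), in 3 of 15 outside (20.0%) and in 11.6% of 21255 protein-coding promoters (22.4% inside LADs, 8.42% outside). In all 15 it was on the gene's strand and began 29 to 74 bases before the annotated start site, with a median of 46 bases; in Defa21 it began 31 bases before. Within 25 to 40 bases before the start, where a TATA box usually lies, it began in 7 of 16 alpha promoters (43.8%), 2 of 29 beta promoters (6.90%, 1 promoter per gene) and 2.47% of all protein-coding promoters (3.78% inside LADs, 2.08% outside). The alpha promoter without the hexamer was that of Defa28. Among the printed beta promoters, Defb48 had the hexamer 30 bases and Defb23 221 bases before the start. A match is a description of the letters and does not show a working TATA box. For 13 of the 16 alpha promoters another was at least 95% identical, so the alpha shares do not rest on 16 independent promoters.

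Most alpha promoters compared had a near copy in the family. For 10 of the 16 the closest other alpha promoter was identical over the 250 bases, as for Defa21 and Defa22, and for 13 it was at least 95% identical. No beta promoter reached 95%: the closest pair, Defb3 and Defb8, was 86.7% identical, and the median beta gene had its closest match at 55.0%. The 464 pairs of an alpha with a beta promoter had a median of 50.2% and reached 55.0%. A closest match of 55.0% was therefore no higher than between the families. Short reads from identical copies cannot be told apart, and how the authors handled reads with more than 1 match is not given in the sources used here. The part of such reads in the second chromosome 8 LAD was not tested.

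Other genes of antimicrobial defence were placed for comparison, from a list of 40 symbols of which 39 were matched. Of these, 12 (30.8%) were in a LAD, near the 23.8% of all protein-coding genes. Reg3a, Reg3b, Reg3d and Reg3g, genes of intestinal C-type lectins on chromosome 6, lay 1588 to 1683 kb inside, deeper than the chromosome 1 defensins. Retnla, Retnlb and Retnlg, resistin-like genes of chromosome 16, lay 53.5 to 109.1 kb inside. The others inside were Ang4, Pglyrp3, Sprr2a1, Spag11a and Spag11b. Spag11a and Spag11b lie within the first chromosome 8 defensin cluster, and the Reg3 genes, like the Retnl genes, are close neighbours. The 12 are therefore not independent of each other or of the defensin places. Relatives on the same chromosome could differ: Ang4 lay 37.4 kb inside and Ang 47.1 kb outside on chromosome 14, and Pglyrp3 lay 1274 kb inside and Pglyrp4 14.1 kb outside on chromosome 3. Mmp7, whose protease activates alpha defensin precursors in Paneth cells, lay 14.3 kb outside, and Camp, the cathelicidin gene, 24.7 kb outside. Furin, which encodes a proprotein convertase, and Ccr6, a chemokine receptor gene whose product binds some beta defensins, were 1685 and 679.3 kb outside. The Wfdc genes, another family of small cysteine-rich secreted proteins in clusters, had 0 of 18 members in LADs, with 14 of them on chromosome 2. Of 4 Paneth cell genes (Lyz1, Mmp7, Ang4 and Itln1) only Ang4 was in a LAD. None of the 4 neutrophil genes (Elane, Mpo, Camp and Ngp) and neither of the keratinocyte genes Krt5 and Krt14 was. Of 4 epididymal genes, Crisp1, Spag11a and Spag11b were inside and Lcn5 outside.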

How the data were processed

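CUT&RUN used 500000 cells per reaction, per the labels' protocols. The submitters' processing notes name Bowtie2 and mm10; the caller of the domains, its threshold and the use of IgG are not given in the sources used here. The authors deposited 1 BED list of domain start and end positions, whose score column is 0 in all 1437 rows. It was read as the pooled Lamin B1 result, from its name, and positions were counted from 1.

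Genes came from the RefSeq table of GRCm38.p6. A gene was in a LAD when its midpoint was. Promoters with letters other than A, C, G and T (8) were left out, and identity came from global alignment (Biopython 1.88). Placement functions were tested on simulated data. No test was run, since the list has no values per library and genes of a cluster are not independent. Named genes were the first, last, deepest and farthest members of each cluster, those outside, the 3 nearest genes on each side and those within. Further members were named after their values were seen. The members and lists were chosen with earlier results of these data known. Protein sequences were planned and not used here. The plan for them took the first member inside and the first outside a LAD of each cluster. Promoters were printed by another rule, the first member of each cluster with a promoter entry. For the second chromosome 8 cluster the first alpha gene was printed in place of Defb33.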

Additional observations from a re-analysis of the deposited data

How the results depend on the processing

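Of the 71 defensin genes, 54 were in LADs by midpoint. The count was 53 to 55 with either gene end, any overlap, the whole gene, LADs of at least 100 or 500 kb, LADs joined across 250 kb, and borders moved by 25 kb, and the genes that changed sides were Defb40 (inside by its high-coordinate end, by any overlap and with widened LADs) and Defb37 (outside with shrunken LADs). By transcription start site, known for 45 members, 31 (68.9%) were inside, with 16 of 16 alpha and 15 of 29 beta (51.7%). The count fell because fewer genes could be placed. The share also fell, from 76.1%, since members without a known start site lay more often in LADs and no placed member changed sides. With pseudogenes, 66 of 83 defensins and 10460 of 32316 genes were in LADs. There were 5 clusters with limits of 250 kb and 1 Mb. The covered share of the first chromosome 8 cluster, 99.4%, was 85.7% over a span widened by 100 kb, 94.6% with LADs shrunk by 25 kb and 100% with LADs widened by 25 kb. That of the second was 97.0% over the widened span and 100% otherwise, and those of chromosomes 1 (100%), 2 and 14 (0%) did not move. The 12 other antimicrobial genes in LADs were 12 by any overlap and by whole gene. No paired analysis was possible because the list is merged and holds no values per replicate, so no fit without replicate 1 or 2 of Lamin B1 could be made either. The read depth is unknown, which limits how short a domain or gap could be resolved.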
